A study of Mus musculus with 4 samples.

Results

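Dividing secretory progenitors of the mouse small intestine were taken as the crypt cells that carried transcripts of secretory fate genes and of proliferation genes at once. A cell was a member when at least 2 of Atoh1, Dll1 and Spdef had a UMI (unique molecular identifier, 1 counted RNA molecule), Mki67 and Top2a together had at least 4 UMIs, and Lgr5 had at most 1. These measured values chose the members, so they are described and not tested. Of 5452 deposited barcodes, 2011 passed the quality limits (at least 1000 UMIs, at least 500 genes, under 20% mitochondrial UMIs, and at least 60% of hashtag counts from 1 hashtag), and 128 of those were members. All mice carried the Lgr5-EGFP-IRES-CreERT2 and Rosa26-mTmG alleles and received 4-OH-tamoxifen, which lets Cre act in Lgr5+ stem cells and marks their descendants with membrane GFP. The sort took EpCAM+ crypt epithelium of the distal small intestine, from tissue whose villi had been scraped away, with CD31 and CD45 antibodies in the stain. GFP-high cells, called clones here, and GFP-negative cells, called control cells here, came from the same 8 mice, of which 4 (mice 5 to 8) were traced for 72 h and 4 (mice 1 to 4) for 48 h. Each mouse and gate carried its own hashtag within 1 of 2 pooled 10x libraries. Pool 1 held the clones of mice 3, 4, 7 and 8 with the control cells of mice 1, 2, 5 and 6, and pool 2 held the reverse. Lgr5-EGFP and the traced membrane GFP share a colour. The GFP-high gate can therefore hold stem cells that only express EGFP, and the GFP-negative gate lacks such cells while it still holds the descendants of stem cells in which Cre did not act.

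The crypt makes absorptive and secretory cells from the same stem cells at its base. Notch signalling between neighbours sorts the fates: a cell that receives Notch signal makes HES1, which represses Atoh1, while a cell that escapes the signal makes ATOH1, displays the ligands DLL1 and DLL4, and turns on the program of goblet, Paneth, enteroendocrine or tuft cells. Goblet cells fill their endoplasmic reticulum (ER) with mucin and trefoil peptides, so genes of protein folding mark their maturation. Most secretory cells leave the cell cycle soon after commitment, which makes the cells that hold both programs a short transit stage.

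The 128 members comprised 32 clone and 96 control cells, with 69 in pool 1 and 59 in pool 2. All 3 fate genes had a UMI in 93 members, Atoh1 and Dll1 alone in 12, Atoh1 and Spdef alone in 12, and Dll1 and Spdef alone in 11. Atoh1 (chr6:64729125-64731245, + strand) encodes the factor that starts secretory fate and had a median of 3 and a maximum of 26 UMIs per member. Dll1 (chr17:15367354-15376872, - strand), a Notch ligand, had a median of 3 and a maximum of 14. Spdef (chr17:27714352-27728955, - strand), a factor of goblet and Paneth maturation, had a median of 4 and a maximum of 25. These coordinates are from the GENCODE M21 annotation of GRCm38 (mm10). The sum of Mki67, a marker of cycling cells, and Top2a, a topoisomerase of S to M phase, spanned 4 to 165 UMIs with a median of 12.5. The Lgr5 limit left out 14 further cells, and 22 members had 1 Lgr5 UMI.

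Near the edges of the rule the profile changed by degrees. The 13 members at exactly 4 Mki67 and Top2a UMIs held 84350 CPM (UMIs per 1e6 UMIs of the same cells) of 20 goblet genes, and the 27 cells just outside at 3 UMIs held 108296. The same cells held 290 CPM for a list of G2/M genes at 4 UMIs and 115 at 3 UMIs. Along the number of fate genes the step was larger: dividing cells of the same Lgr5 limit with none of the 3 genes (354 cells), 1 gene (56), 2 genes (35) and 3 genes (93) held 1233, 5125, 61264 and 57233 CPM of goblet genes. Hes1 had 304.3, 307.5, 129.5 and 95.9 CPM over the same 4 sets, so for both measures the largest step lay between 1 and 2 genes, upward for goblet genes and downward for Hes1. Median depth over those sets was 16352.5, 13839, 21676 and 35326 UMIs per cell, so the sets with none or 1 of the genes were also the shallower ones.

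Members were set against 525 cells of the same filter with at least 4 Mki67 and Top2a UMIs and no UMI of the 3 fate genes, with no limit on Lgr5; 354 of these had at most 1 Lgr5 UMI and 171 had more. They were also set against 188 non-dividing secretory progenitors, which had at least 2 of the 3 genes, at most 1 Lgr5 UMI, and no UMI of Mki67 or Top2a. Counts were summed per mouse and class over control cells, which gave 8 pairs with 3 to 22 members each, and were tested with edgeR's quasi-likelihood test with the mouse as a block and Benjamini-Hochberg adjustment over all genes tested. Fold changes are log2. Median depth was 31499 UMIs in members, 19391 in the other dividing cells and 26346 in the non-dividing secretory progenitors. The median mitochondrial share was 5.17%, 10.6% and 4.50% in the same order. These gaps move with both comparisons, and their part in the differences was not tested. Of the members, 28 had under 80% of hashtag counts from the top hashtag and 4 carried a doublet mark. The caller (Scrublet) marked 0.497% of barcodes, too few to count as working, so doublet removal rests on the hashtags, which cannot show doublets within 1 mouse and gate. The pools shared 1 barcode, and it did not pass the filter in both. The 48 h clones stand apart by their size: they gave 4, 18, 46 and 8 cells past the filter in mice 1 to 4, and the median depth in mouse 3 was 1638 UMIs.

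**Figure D1:**
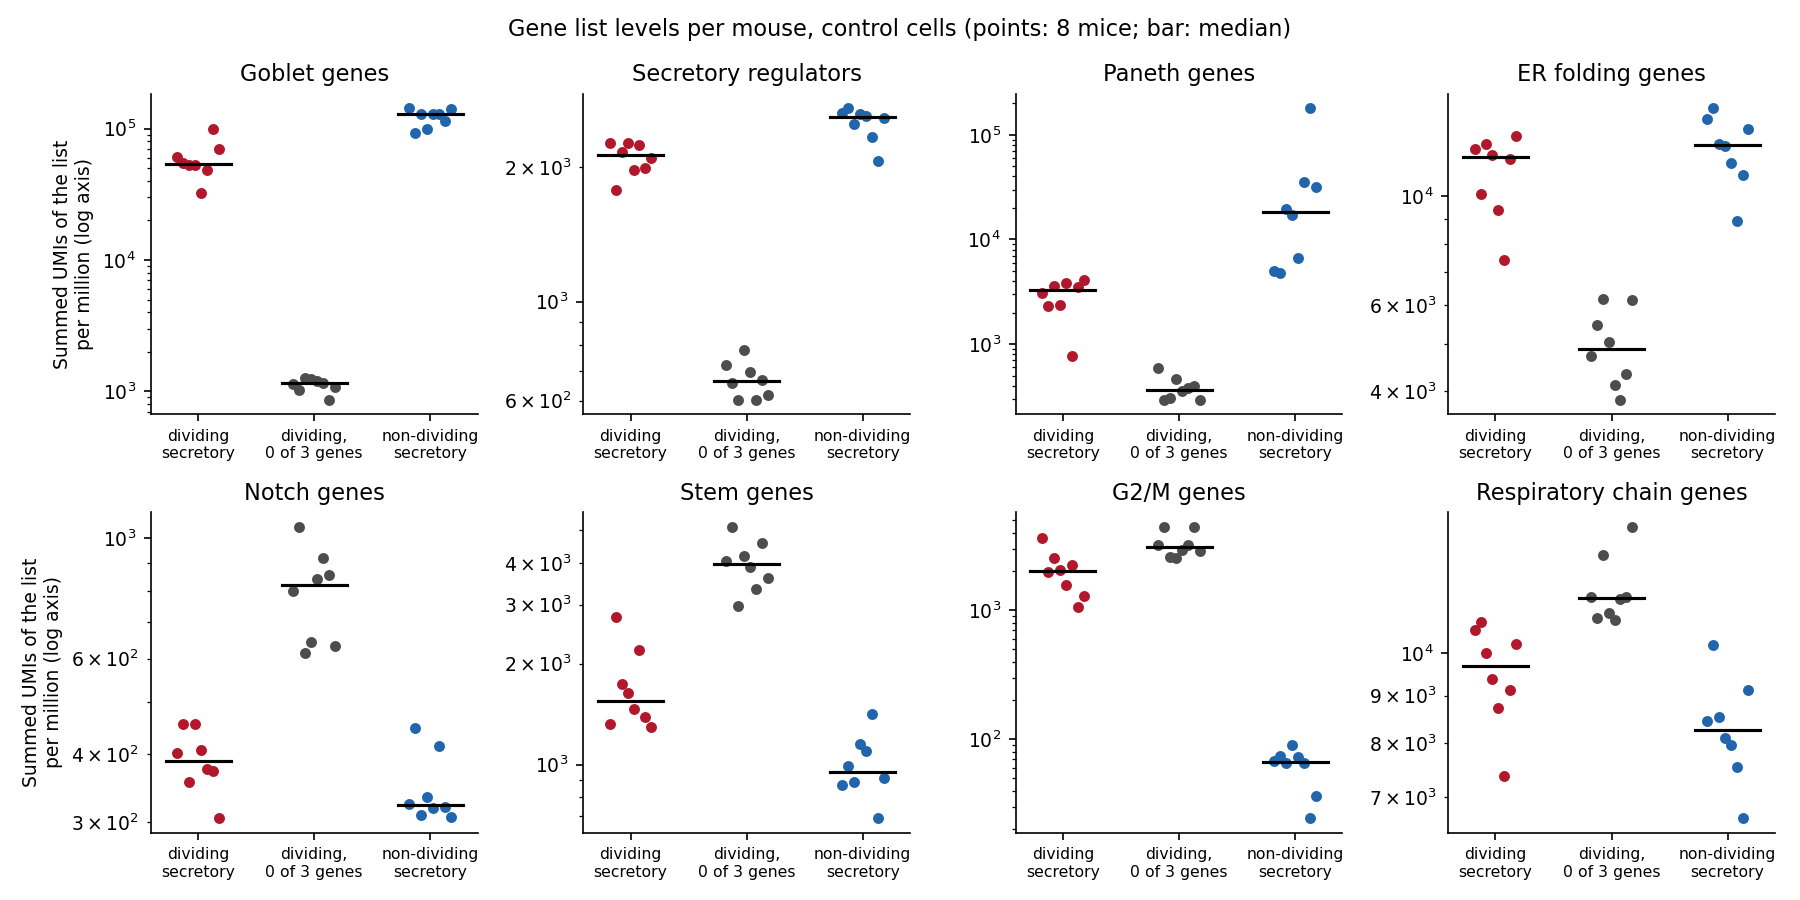
Summed CPM (vertical log axis) of 8 gene lists in control cells, for dividing secretory progenitors, dividing cells with none of the 3 fate genes, and non-dividing secretory progenitors; each point is 1 of 8 mice and the bar is the median. The goblet sums of members lie between 32216 and 99525, above every mouse of the other dividing cells (866 to 1274), while their G2/M sums (1053 to 3611) overlap those of the other dividing cells (2536 to 4455).

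The goblet program was the largest difference from other dividing cells. All 17 goblet genes that could be tested were higher in members, with a median log2 fold change of 6.75, against -0.03 over all 6843 genes tested. The background is high: 18.1% of all tested genes were higher and 15.3% lower at an adjusted p under 0.05, or 1241 and 1046 genes (33.4% either way), and 8.78% had no overlap between the classes over mice. Fer1l6, Ramp1 and Retnlb were the list's genes below the filter on low counts. Because Atoh1 and Spdef chose the cells, a raised goblet list describes the kind of cell the rule picks; a gene that passed the filter through members alone had to be higher.

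Muc2 (chr7:141690340-141754693, + strand), the gel-forming mucin of the gut, had a lowest, median and highest level of 2252, 3675 and 5874 CPM over the 8 mice in members, against 23.8, 28.9 and 48.5 CPM in other dividing cells. The classes did not overlap in any mouse, and the log2 fold change was 6.75 ± 0.17 (SE; edgeR adjusted p = 2.02e-19). Agr2, a disulfide isomerase needed for mucin folding, had 5783, 13930 and 21242 CPM in members, against 38.0, 67.4 and 81.3 CPM in other dividing cells (log2 fold change 7.61 ± 0.24). Tff3, the trefoil peptide secreted with mucin, averaged 17147 ± 4795 CPM in members and 143 ± 52.9 CPM in other dividing cells (SD, n = 8 each). Spink4 (6.61 ± 0.20), the mucus components Fcgbp (6.79 ± 0.24) and Clca1 (6.92 ± 0.26), and Bcas1 (7.14 ± 0.31), Ccl9 (7.12), Sytl2 (6.99), Ccl6 (6.90) and Tpsg1 (6.83) lay at a similar log2 fold change, each higher in 8 of 8 mice. Bcas1, Ccl9, Sytl2, Ccl6 and Tpsg1 were among the largest rises by the naming rule, which takes only genes of 1 sign in all mice. Ccl6 is not on the goblet list. In other dividing cells Bcas1, Ccl9, Sytl2, Ccl6 and Tpsg1 averaged only 0.682, 1.78, 1.34, 5.40 and 1.38 CPM. They passed the filter on low counts through members and had to be higher, and the size of each rise depends on those few counts.

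Free RNA in a droplet can give a UMI to a cell that does not express the gene. A Muc2 UMI was found in 122 of 128 members (95.3%, Wilson 95% interval 90.2 to 97.8), in 294 of 525 other dividing cells (56.0%) and in 188 of 188 non-dividing secretory progenitors. Enterocytes, which should lack the gene, had one in 18 of 32 cells (56.3%) at a median of 28800.5 UMIs, against the median of 19391 in other dividing cells. After each cell was thinned to 5000 UMIs the shares were 93.8% of 128 members, 21.7% of 515 other dividing cells (10 were shallower) and 9.38% of 32 enterocytes, so the other dividing cells were near the enterocytes before thinning and above them after it. Intervals of this kind cover counting error only.

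Promoters of 2 of these goblet genes are shown because they hold the letters CAGCTG, an E-box form that ATOH1-type factors are known to bind. The 250 bases before the start are from RefSeq on GRCm38.p6, on the gene's strand, with the CAGCTG in capitals; they lie at chr7:141690090-141690339 (+) for Muc2, where the match begins 112 bases before the start, and at chr7:28070986-28071235 (+) for Fcgbp, where it begins 208 bases before.
Muc2 promoter: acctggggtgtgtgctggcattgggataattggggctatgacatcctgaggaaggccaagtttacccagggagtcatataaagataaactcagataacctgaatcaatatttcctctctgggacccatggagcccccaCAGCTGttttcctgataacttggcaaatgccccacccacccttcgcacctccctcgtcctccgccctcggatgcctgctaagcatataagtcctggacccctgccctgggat
Fcgbp promoter: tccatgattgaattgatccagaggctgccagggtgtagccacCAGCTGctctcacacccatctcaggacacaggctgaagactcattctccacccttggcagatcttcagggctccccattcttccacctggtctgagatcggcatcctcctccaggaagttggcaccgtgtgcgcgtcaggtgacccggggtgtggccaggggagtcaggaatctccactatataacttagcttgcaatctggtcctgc
Searched on both strands, CAGCTG was in 4 of 17 promoters of goblet genes (23.5%; 10 of 20 genes have an entry) and in 4271 of 32851 promoters in all (13.0%). A match describes letters and not a bound site.

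Upstream of the goblet genes, 10 of 12 tested regulators of secretory fate were higher in members and 1 was lower, with a median log2 fold change of 2.78. Creb3l1 (chr2:91982328-92024502, - strand), an ER-anchored factor of secretory cells, had 262, 331 and 376 CPM in members as its lowest, median and highest mouse, against 2.14, 9.61 and 14.5 CPM in other dividing cells. The classes did not overlap, and the log2 fold change was 5.18 ± 0.18 (edgeR adjusted p = 5.43e-17). With so few counts in other dividing cells, Creb3l1 passed the filter on low counts through members and had to be higher. Creb3l4 rose by 5.38 ± 0.28, Hepacam2 by 5.67 ± 0.28, the forkhead factor Foxa3 by 3.35 ± 0.22, the goblet differentiation factor Klf4 by 2.29 ± 0.11 and the unfolded protein response factor Xbp1 by 1.97 ± 0.12. Gfi1, which acts below Atoh1 to keep enteroendocrine fate off, had a UMI in 52 of 128 members (40.6%, Wilson 32.5 to 49.3), in 2 of 525 other dividing cells, and in 0 of 32 enterocytes, which allows a share of up to 9.38%. Non-dividing secretory progenitors had a Gfi1 UMI in 73 of 188 cells (38.8%), close to the share of members. Thinned to 5000 UMIs, 9.38% of members and 12.8% of non-dividing cells kept a Gfi1 UMI. Sox4, a progenitor factor, was the gene that was lower (-0.72 ± 0.15, adjusted p = 4.34e-04), but against the other dividing cells with at most 1 Lgr5 UMI its log2 fold change was 0.26. Sox9, a factor of crypt base and Paneth cells, did not pass the test (0.27 ± 0.12, adjusted p = 0.0919).

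Among Notch genes, the ligand Dll4 was higher in members, and a receptor and 2 targets were lower. Dll4 (chr2:119325784-119335962, + strand), a ligand the rule did not use, had 26.1, 42.9 and 69.2 CPM as lowest, median and highest mouse in members, against 0, 0 and 3.30 CPM in other dividing cells. The classes did not overlap (log2 fold change 5.20 ± 0.40, edgeR adjusted p = 1.09e-10). At a median of 0 CPM in other dividing cells, Dll4 passed the filter on low counts through members alone. It therefore had to be higher, and its call only describes the class. A Dll4 UMI was in 79 of 128 members against 16 of 525 other dividing cells. The ligand Jag1 was below the filter on low counts and had a UMI in 12 of 128 members against 71 of 525 other dividing cells. Dll4 is not on the Notch list used here. Of 8 tested genes on that list, 3 were lower in members, 0 were higher and 5 did not pass the test (median log2 fold change -0.51). Hes1 (chr16:30064384-30067796, + strand), the main Notch target and repressor of Atoh1, had 62.9, 105 and 125 CPM in members, against 227, 395 and 575 CPM in other dividing cells. No mouse overlapped, and the log2 fold change of Hes1 was -1.86 ± 0.13 (adjusted p = 1.52e-11).

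The other 2 were the feedback target Nrarp (-2.41 ± 0.29) and the receptor Notch1 (-1.75 ± 0.32), both picked from the list after their values were seen. A Notch1 UMI was in 23 of 128 members, 259 of 525 other dividing cells and 1 of 188 non-dividing secretory progenitors, although members were the deepest of the 3 classes. Against the other dividing cells with at most 1 Lgr5 UMI, Hes1 was lower by a log2 fold change of -1.40 (adjusted p = 9.91e-10), while Nrarp and Notch1 did not pass the filter on low counts.

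Paneth genes were on at a lower level. Of 9 tested Paneth genes 6 were higher and 3 lower, with a median log2 fold change of 2.55. Mmp7, the protease that activates Paneth defensins, had 304.9, 863 and 1589 CPM as lowest, median and highest mouse in members, against 6.34, 16.3 and 51.5 CPM in other dividing cells, with no overlap (5.42 ± 0.25, adjusted p = 9.76e-15). Itln1, a lectin of Paneth and goblet cells, was higher by 5.20 ± 0.28, Defa24, an alpha-defensin, by 3.27 ± 0.24 and Lyz1, the Paneth lysozyme, by 2.55 ± 0.31, each in 8 of 8 mice. Defa24 had a UMI in 100 of 128 members, 371 of 525 other dividing cells and 24 of 32 enterocytes, so its share of cells says little. Defa21 (-1.27), Defa22 (-1.04) and Defa30 (-0.87) were lower at medians of 9.05 to 13.6 CPM in members; near-identical defensin copies can split reads. Against other dividing cells with at most 1 Lgr5 UMI none of the 3 passed the filter on low counts.

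The goblet gene Muc2 and the Paneth gene Mmp7 met in the same cells. At least 10 Muc2 UMIs were counted in 112 of 128 members, at least 10 Mmp7 UMIs in 82, and both in 80. With Muc2 so common, most members with Mmp7 would hold both without any link. A Mmp7 UMI was in 119 of 128 members, 149 of 525 other dividing cells and 171 of 188 non-dividing secretory progenitors, so Mmp7 is not particular to members. Doublets within 1 mouse and gate cannot be seen, and their part was not tested. The Paneth gene Lyz1 was less common, with a UMI in 61 of 128 members and at least 10 UMIs in 17. Joint counts of Muc2 with Paneth genes other than Mmp7 were not made.

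Of the enteroendocrine list, Sct was found in most members and Tac1 in fewer, while precursor and granule genes were rare. The list summed to 305.7, 369 and 507 CPM as lowest, median and highest mouse in members, against 9.40, 16.3 and 1318 CPM in other dividing cells, where mouse 5 held the highest value. Sct, the secretin gene, was the 1 of 20 genes with enough counts to test. It was higher in members (6.62 ± 0.19, edgeR adjusted p = 2.38e-18). At 0 to 6.42 CPM in other dividing cells, Sct passed the filter on low counts through members and had to be higher. A Sct UMI was in 113 of 128 members (88.3%), 31 of 525 other dividing cells and 13 of 32 enterocytes. Sct is not particular to members, as 159 of 188 non-dividing secretory progenitors (84.6%) had a UMI. Thinned to 5000 UMIs, the shares were 55.5% of members and 59.8% of non-dividing cells. Between these 2 classes Sct did not pass the test (-0.08 ± 0.13, edgeR adjusted p = 0.705). Tac1, which encodes substance P, had a UMI in 52 of 128 members (40.6%), 35 of 525 other dividing cells and 2 of 32 enterocytes. Thinned to 5000 UMIs, 17.97% of members and 3.11% of other dividing cells kept a Tac1 UMI. The granule genes Chgb and Chga had a UMI in 7 and 2 members, the factors Insm1 and Neurog3 in 3 and 1, and Neurod1 in 0 of 128. That 0 allows up to 2.34% of cells with a Neurod1 UMI and sets no limit on cells that express the gene below detection. Of 14 tuft genes only Kctd12, which is not confined to tuft cells, could be tested (1.29 ± 0.33). Its call rests on mouse 5, without which it was 0.68 (adjusted p = 0.0514). Dclk1, the tuft kinase, was at 0 in all members but 1 cell of mouse 5, which held 29 UMIs.

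Stem and absorptive genes were lower. Of 14 tested stem genes 8 were lower in members and 1 higher, with a median log2 fold change of -0.85; since the comparison cells had no Lgr5 limit, this list is tied to the rule. Olfm4 (chr14:79984081-80023139, + strand), a secreted stem cell marker, had 105, 294 and 1135 CPM as lowest, median and highest mouse in members, against 1479, 2016 and 2771 CPM in other dividing cells. The mice did not overlap (-2.76 ± 0.21, adjusted p = 1.08e-10), and against other dividing cells with at most 1 Lgr5 UMI Olfm4 was still lower (-1.01, adjusted p = 0.00366). Pdgfa (-2.55), the Wnt targets Axin2 (-1.38) and Cdca7 (-1.20), and Cd44, Rnf43, Myc and Rgmb were the other lower ones, and Soat1 was higher (0.73 ± 0.17). With the Lgr5 limit on both sides the list counted 2 higher and 5 lower.

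Of 11 tested genes on the absorptive list 8 were lower and 2 higher (median -1.17). Dmbt1, a secreted scavenger protein, had 22.3, 247 and 304.9 CPM as lowest, median and highest mouse in members, against 450, 1160 and 1899 CPM in other dividing cells, with no overlap (-2.47 ± 0.22). The antimicrobial lectins Reg3b (-1.59 ± 0.22) and Reg3g (-1.16 ± 0.18), also on the list, were lower. Fabp2, an intestinal fatty acid binding protein, was higher (1.73 ± 0.15), as was the brush border protein Vil1 (0.43 ± 0.10). Off the list, the bile acid binding protein Fabp6 had 41.5, 52.1 and 84.9 CPM in members, against 156, 639 and 3151 CPM in other dividing cells (-4.27 ± 0.28). The naming rule also gave Apol10a (-4.97 ± 0.37), Mgat4c (-4.12 ± 0.37), the retinol binding protein Rbp7 (-3.39 ± 0.30), the sulfotransferase Sult1b1 (-3.38 ± 0.34), the galectin Lgals3 (-2.81 ± 0.25) and the glutathione transferase Mgst1 (-2.63 ± 0.17) among the largest falls, each lower in 8 of 8 mice. That rule takes only genes of 1 sign in all mice. Apol10a, Mgat4c, Rbp7 and Sult1b1 had medians of 2.12, 7.11, 4.21 and 2.88 CPM in members. They passed the filter on low counts through the other dividing cells and had to be lower.

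**Figure D2:**
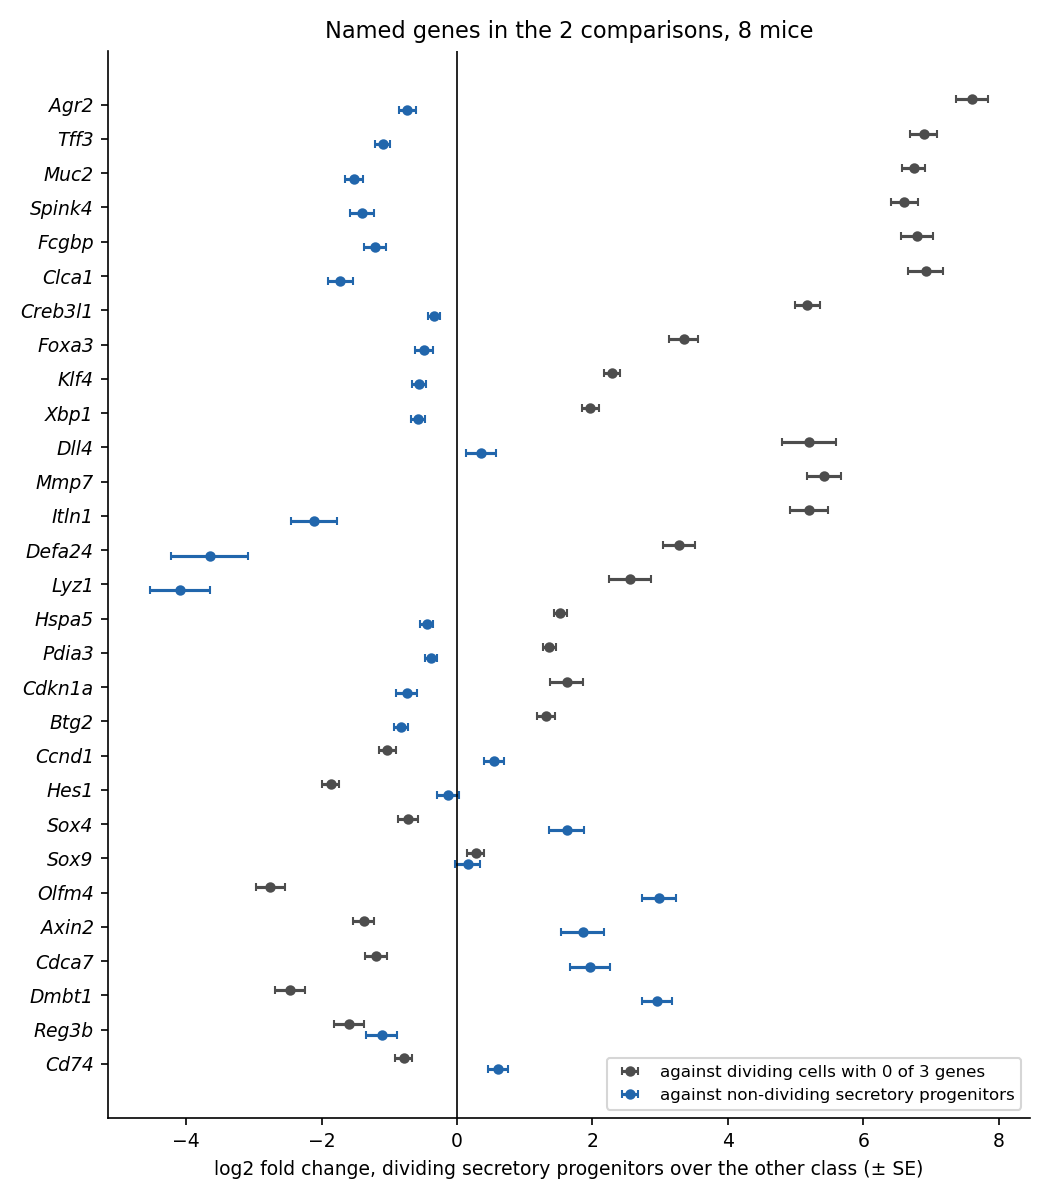
Log2 fold change (horizontal axis, ± SE over 8 mice) of named genes in dividing secretory progenitors over dividing cells with none of the 3 fate genes (grey) and over non-dividing secretory progenitors (blue). Muc2 lies at 6.75 in the first comparison and at -1.52 in the second, while Olfm4 lies at -2.76 and 2.99; both comparisons use the same member sums.

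Genes of ER folding and export were higher almost throughout: 19 of 20 rose, 0 fell, and the median log2 fold change was 1.51. Hspa5 (chr2:34771970-34777547, + strand), the ER chaperone BiP, had 925, 1648 and 2070 CPM as lowest, median and highest mouse in members, against 322, 568.1 and 761 CPM in other dividing cells, with no overlap (1.53 ± 0.09, edgeR adjusted p = 1.06e-12). The disulfide isomerase Pdia3 rose by 1.36 ± 0.10 and the chaperone Hsp90b1 by 0.78 ± 0.09. Creld2, a secreted protein of ER stress, averaged 112 ± 43.1 CPM in members and 34.1 ± 14.3 CPM in other dividing cells (SD, n = 8 each; 1.72 ± 0.16, adjusted p = 4.77e-09). Dnajc3, an ER co-chaperone, averaged 308.2 ± 74.0 CPM in members and 131 ± 28.0 CPM in other dividing cells (1.23 ± 0.12). The lectin chaperone Canx was the exception, with 402 ± 48.7 CPM in members and 437 ± 46.8 CPM in other dividing cells (-0.13 ± 0.09, adjusted p = 0.314).

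Creld2, Dnajc3 and Canx share a letter pattern in front of their start although the first 2 rose and Canx did not pass the test. The pattern is the ER stress response element, CCAAT and CCACG with 9 bases of any kind between them, known as a site of ATF6 with NF-Y. The 250 bases before each start are from RefSeq on GRCm38.p6, on the gene's strand, with the match in capitals, at chr15:88819396-88819645 (+) for Creld2, where the element runs in reverse, chr14:118937682-118937931 (+) for Dnajc3 and chr11:50325674-50325923 (-) for Canx.
Creld2 promoter: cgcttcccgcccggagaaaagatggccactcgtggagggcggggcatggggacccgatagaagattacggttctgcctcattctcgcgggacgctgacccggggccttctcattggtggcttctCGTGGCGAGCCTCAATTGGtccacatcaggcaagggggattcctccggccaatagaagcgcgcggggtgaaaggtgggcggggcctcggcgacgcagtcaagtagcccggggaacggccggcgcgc
Dnajc3 promoter: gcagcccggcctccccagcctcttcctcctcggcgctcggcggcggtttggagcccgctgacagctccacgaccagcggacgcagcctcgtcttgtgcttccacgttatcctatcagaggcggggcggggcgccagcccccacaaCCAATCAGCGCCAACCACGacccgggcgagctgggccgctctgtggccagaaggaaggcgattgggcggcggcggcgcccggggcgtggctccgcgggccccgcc
Canx promoter: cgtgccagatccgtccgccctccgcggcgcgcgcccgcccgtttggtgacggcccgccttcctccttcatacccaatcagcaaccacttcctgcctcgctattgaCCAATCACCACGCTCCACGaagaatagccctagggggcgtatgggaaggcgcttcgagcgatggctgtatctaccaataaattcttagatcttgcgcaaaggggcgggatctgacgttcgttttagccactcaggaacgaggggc
The matches begin 126, 105 and 145 bases before the start of Creld2, Dnajc3 and Canx. Searched on both strands, the pattern was in 7 of 16 ER list genes with an entry (43.8%: Hspa5, Calr, Hsp90b1, Canx, Pdia6, Dnajc3 and Creld2) and in 37 of 32851 promoters in all (0.113%). None of the 17 goblet promoters held it.

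The cell cycle lists differed less. Of 22 tested G1/S genes 2 were lower in members (Mcm7, a replicative helicase subunit, -0.59 ± 0.16, and Gins2, -0.58 ± 0.19) and 0 higher, with a median of -0.12. Of 22 tested G2/M genes 12 were lower and 0 higher (median -0.51). That count fell to 7 without mouse 5, to 5 in pool 1 mice alone and to 7 in pool 2 mice alone. Cenpf, a kinetochore protein, showed the size of these differences at -0.69 ± 0.23 (adjusted p = 0.0249), and its call was lost without mouse 2 (-0.62) or mouse 5 (-0.62). Mki67 and Top2a set membership on both sides here, so the amount of cycling is bounded from below by the rule. The limit of 4 UMIs is absolute, while median depth was 31499 UMIs in members and 19391 in other dividing cells. Per UMI it was therefore a lower bar for members. Of the 128 members, 51 had only 4 to 9 of these UMIs, and their low G1/S and G2/M levels are given with the bins below. The part of this limit in the cell cycle, cyclin and inhibitor differences was not tested.

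Among D cyclins, their kinases and cycle inhibitors, 5 of 12 were higher and 3 lower. Cdkn1a (chr17:29090976-29100727, + strand), the inhibitor p21, had 52.6, 104 and 240 CPM as lowest, median and highest mouse in members, against 4.05, 36.7 and 63.1 CPM in other dividing cells. It was higher in 8 of 8 mice, although the ranges overlap (1.62 ± 0.24, adjusted p = 7.37e-06). The antiproliferative gene Btg2 was higher (1.31 ± 0.13), as were Ccnd3 (0.88 ± 0.21), Cdkn2d (0.76 ± 0.22) and Ccnd2 (0.33 ± 0.12, adjusted p = 0.0326, a call lost without mouse 6, 7 or 8). Cyclin D1 (Ccnd1) was lower without overlap, with 110, 179 and 206 CPM in members against 221, 319 and 407 CPM in other dividing cells (-1.03 ± 0.13, adjusted p = 3.74e-07). Cdk6 (-1.13 ± 0.18) and the inhibitor Cdkn2b (-1.02 ± 0.27) were also lower. Cdkn1b, the inhibitor p27, did not pass the test (-0.08 ± 0.12, adjusted p = 0.665).

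Nuclear genes of the respiratory chain gave 7 lower and 0 higher of 18 (median -0.21), as in Cox6c (-0.27 ± 0.08). Beside this stands the lower mitochondrial share of members; with cells under 10% mitochondrial UMIs in both classes the count was 14 lower, and in pool 1 mice alone it was 0. The invariant chain Cd74 was lower (-0.79 ± 0.12). Of 12 immune genes only Cd74, which crypt epithelium also makes, could be tested. Of the defining genes of other cell types, Ptprc had a UMI in 1 member and Cd3e, Pecam1 and Col1a1 in none, and the summed list of stromal, endothelial and red cell genes lay between 0 and 3.82 CPM over mice.

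Against non-dividing secretory progenitors, members had lower levels of goblet and Paneth genes and more progenitor transcripts. The rule set no upper limit on mature products. Single non-dividing cells held up to 3078 Lyz1 and 19689 Defa24 UMIs, against 340 and 1887 in members. The non-dividing class can therefore include mature cells, and their part in the differences was not tested. Of 4372 genes tested, 707 (16.2%) were higher and 792 (18.1%) lower (34.3% either way), and 5.08% had no overlap over mice. Here the cell cycle genes describe the rule: all 11 tested G2/M genes and all 3 tested G1/S genes were higher, and Kif4 (5.64), Pclaf (5.30), Knl1 (5.23) and Smc2 (4.10) had some of the largest rises. Of 19 tested goblet genes 18 were lower in members (median log2 fold change -1.10, against -0.00 over all genes), with Ccl9 not called. Muc2 had 2208, 3549 and 5412 CPM as lowest, median and highest mouse in members, against 8042, 9208 and 12034 CPM in non-dividing cells, with no overlap (-1.52 ± 0.13, adjusted p = 3.76e-09). Tff3 (-1.10 ± 0.12), Agr2 (-0.73 ± 0.12), Spink4 (-1.41 ± 0.17) and Clca1 (-1.72 ± 0.19) were lower in 8 of 8 mice. Zg16, a granule lectin, had a log2 fold change of -3.34 ± 0.55 and varied widely between mice, with 3528 ± 5500 CPM in members and 22707 ± 14065 CPM in non-dividing cells (SD, n = 8 each).

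All 9 tested Paneth genes were lower (median -2.12). Lyz1 had 34.1, 99.1 and 231 CPM in members, against 104, 1846 and 14504 CPM in non-dividing cells (-4.09 ± 0.44), and was lower in 7 of 8 mice. Defa24 (-3.65 ± 0.57), Itln1 (-2.12 ± 0.34) and Nupr1 (-1.996 ± 0.23), a stress-induced chromatin protein on the same list, were lower too. The Paneth list in the non-dividing class spanned 4831 to 180132 CPM over mice, with its highest value in mouse 7, so the size of these falls depends on the mouse. In pool 1 mice alone 5 of the list were called, and with all 3 fate genes required 4 were. Of 20 ER folding genes 12 were lower (median -0.36), among them Hspa5 (-0.45 ± 0.10) and Pdia3 (-0.39 ± 0.09), but 4 in pool 2 mice alone. Of the enteroendocrine list, Tac1 was lower in members (-0.65 ± 0.22, adjusted p = 0.0242), a call lost without mouse 1, 3 or 4, and had a UMI in 52 of 128 members and 84 of 188 non-dividing cells.

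The regulators divided. Klf4 (-0.56 ± 0.10), Xbp1 (-0.58 ± 0.10), Foxa3 (-0.49 ± 0.14) and Creb3l1 (-0.34 ± 0.09) were among 8 of 12 that were lower, while Sox4 had 57.8, 92.9 and 173 CPM in members, against 11.9, 25.5 and 86.0 CPM in non-dividing cells (1.62 ± 0.25, adjusted p = 3.13e-05). Dll4 (0.36 ± 0.22, adjusted p = 0.222) and Sox9 (0.16 ± 0.18, adjusted p = 0.546) did not pass the test. Hes1 did not pass it either, with 95.5 CPM in members and 114 CPM in non-dividing cells on average (-0.13 ± 0.16, adjusted p = 0.5683), and 0 of 4 tested Notch genes were called.

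Of 9 tested stem genes 5 were higher in members and 0 lower, against 16.2% and 18.1% of all genes tested. Here both classes had the same Lgr5 limit. Olfm4 had 97.9, 274 and 1120 CPM as lowest, median and highest mouse in members, against 18.6, 38.2 and 67.9 CPM in non-dividing cells, with no overlap (2.99 ± 0.26, adjusted p = 4.24e-09). Cdca7 (1.96 ± 0.30), Axin2 (1.85 ± 0.32), Smoc2 (1.13 ± 0.19) and Ephb2 (0.49 ± 0.19) were the others. The list's count was 3 without mouse 1 or mouse 8. Cdca7 and Axin2 had medians of only 18.7 and 12.3 CPM in non-dividing cells. They passed the filter on low counts mainly through members, so the count is partly set by the filter. Of 8 tested absorptive genes 1 was higher and 5 lower (median -0.54): Dmbt1 was higher (2.95 ± 0.22), and Reg3g (-1.49 ± 0.29), Reg3b (-1.11 ± 0.23) and Fabp2 (-0.83 ± 0.12) were among the lower ones. The cycle list gave 4 higher, Cdk4 (1.04 ± 0.16), Cdk6 (0.79 ± 0.23), Cdkn1b (0.56 ± 0.15) and Ccnd1 (0.55 ± 0.15), and 2 lower, Btg2 (-0.82 ± 0.10) and Cdkn1a (-0.74 ± 0.16). Outside the lists the C-type lectin Clec2h (-1.87 ± 0.13), the calpain Capn9 (-1.81 ± 0.27) and the synaptotagmin Syt7 (-1.73 ± 0.18) were lower in 8 of 8 mice. The naming rule takes only genes of 1 sign in all mice. Capn9 had a median of 12.5 CPM in members and passed the filter on low counts mainly through non-dividing cells.

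**Figure D3:**
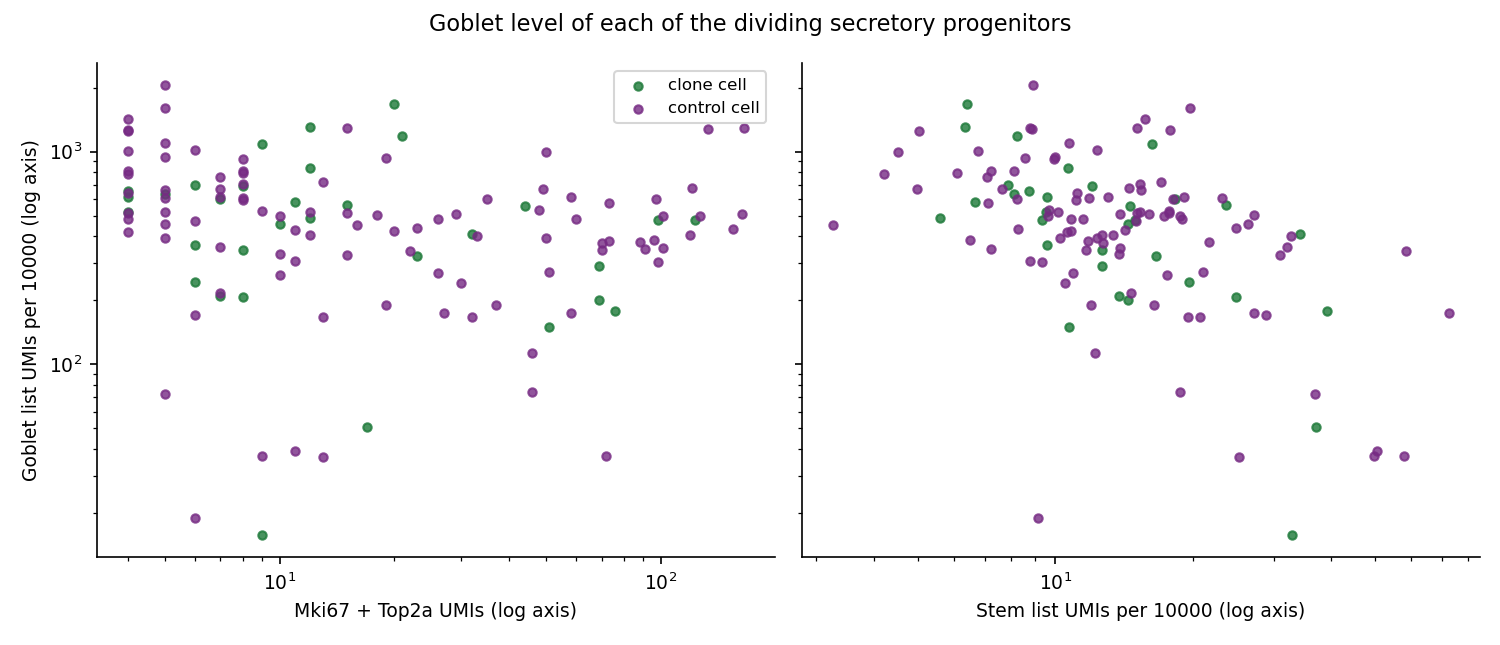
Goblet list UMIs per 10000 UMIs (vertical log axis) of each of the 128 dividing secretory progenitors against its Mki67 and Top2a UMIs (left) and its stem list UMIs per 10000 (right); green points are clone cells and purple points control cells. The goblet level spreads from 15.8 to 2045 per 10000, and cells with high stem levels lie mostly at low goblet levels.

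Members varied widely among themselves. Those with 4 to 9 Mki67 and Top2a UMIs (51 cells), 10 to 29 (35) and 30 or more (42) had median goblet levels of 610, 453 and 398 UMIs per 10000. G2/M levels over the same bins were 3.04, 5.46 and 51.6 per 10000, and ER folding levels 122, 116 and 108. Stem levels had no such order, at 12.03, 14.4 and 13.0. Median depth was 26309, 32370 and 35666 UMIs, and its part in the order was not tested. G1/S levels over the same bins were 2.82, 6.52 and 12.2 per 10000. Other dividing cells had medians of 10.7 per 10000 for G1/S and 22.5 for G2/M, and non-dividing secretory progenitors had 1.42 and 0.435. For both lists the 51 members of the lowest bin lay between these classes, by difference nearer to the non-dividing one.

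Over the 128 members, which share 2 libraries and 8 mice, the goblet level had a Pearson r of -0.42 (Spearman rho -0.48) with the stem level, 0.42 (0.50) with ER folding, -0.30 (-0.41) with G1/S, -0.15 (-0.29) with G2/M and 0.22 (0.45) with Paneth genes. These are descriptions of compositional levels, which draw on 1 total per cell. The 16 members with under 10 Muc2 UMIs came from 7 mice, 5 of them clone cells. Their median goblet level was 73.1 per 10000, against 511 in the other 112, and their median stem level was 22.2, against 12.3. An Olfm4 UMI was in 13 of the 16 (median 6.5 UMIs), against 85 of the 112 (median 1). Their median depth was 19362.5 UMIs, against 32322.5.

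The share of dividing secretory progenitors among all cells past the filter was lower in clones than in control cells over 8 mice, a call that rested on single mice and on the limits on cells. In clones traced for 72 h it was 3.07%, 2.70%, 2.65% and 6.41% (mice 5 to 8, from 5, 1, 3 and 22 members among 163, 37, 113 and 343 cells), and in clones traced for 48 h it was 2.17% in mouse 3 (1 member of 46 cells), while mice 1, 2 and 4 had no member among 4, 18 and 8 cells. A count of 0 there allows shares of up to 75%, 16.7% and 37.5%. In control cells the shares were 4.86%, 2.24%, 7.32% and 7.10% at 72 h (mice 5 to 8, 12, 3, 6 and 13 members among 247, 134, 82 and 183 cells) and 13.8%, 7.69%, 9.65% and 7.41% at 48 h (mice 1 to 4, 21, 7, 22 and 12 members among 152, 91, 228 and 162 cells). Mouse 6 was the 1 mouse in which the clone share exceeded the control share.

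Over mice the share was 2.13% ± 2.19 in clones and 7.51% ± 3.37 in control cells (SD, n = 8 each), a difference of -5.38 percentage points (exact two-sided permutation p = 0.00171, 0.0171 after Benjamini-Hochberg adjustment over 10 contrasts). Permuted within mice, the adjusted p was 0.0938, and with cells of at least 10000 UMIs the difference was -3.59 points (adjusted p = 0.428). With mitochondrial shares up to 50% it was -2.77 points (adjusted p = 0.0714). Leaving out mouse 1 (-4.18 points), 2 (-5.05), 4 (-5.09) or 7 (-5.49) also ended the call, with adjusted p of 0.0641, 0.0513, 0.0641 and 0.0525 by exact permutation. With each cell thinned to 5000 UMIs the shares were 0.392% in clones and 2.03% in control cells (exact permutation, adjusted p = 0.0286). The thinned clones held 2 members in mouse 7, 4 in mouse 8 and none in the other mice. In mice 1 to 4 they had only 4, 10, 10 and 7 cells. Within pool 1 the clone mean was 2.81% and the control mean 7.15% (exact permutation p = 0.171), and within pool 2 they were 1.44% and 7.87% (p = 0.0286, the lowest possible with 4 samples on each side).

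At 72 h alone the shares were 3.71% ± 1.81 in clones and 5.38% ± 2.37 in control cells (SD, n = 4 each), a difference of -1.67 points (exact permutation p = 0.286, adjusted 0.317). At 48 h they were 0.543% ± 1.09 in clones and 9.64% ± 2.96 in control cells (difference -9.10 points, exact permutation p = 0.0286, adjusted 0.0571), with 76 clone cells in all. Here, and for the share of dividing cells below, the permutation treats clone and control values as separate samples. Both came from the same mice, and sign flips within only 4 mice cannot give a p under 0.05. At a single time the pairing therefore cannot be tested. Between times, clones had 3.17 points more at 72 h than at 48 h and control cells 4.26 points less (-4.26), each with an exact permutation p of 0.0286 (adjusted 0.0571). The clones' direction turned with cells of at least 10000 UMIs (-1.86 points) and with mitochondrial shares up to 50% (-0.016 points), and their median depth was 19934 UMIs at 72 h and 2437 UMIs at 48 h. As a share of dividing cells, members made up 9.37% ± 5.69 in clones (n = 6 mice with at least 5 dividing cells) and 20.2% ± 7.83 in control cells (n = 8; difference -10.9 points, exact permutation, adjusted p = 0.0571). The clone gate can include EGFP-bearing stem cells, which enlarge its denominator; their part was not tested.

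**Figure D4:**
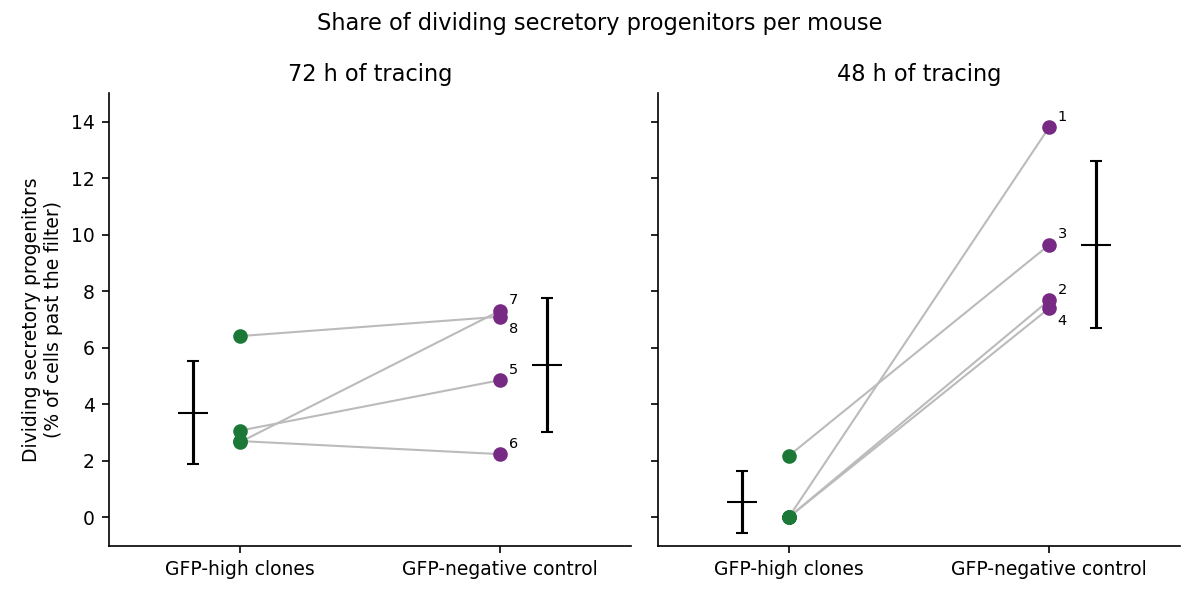
Share of dividing secretory progenitors among cells past the filter (vertical axis, percent) per mouse, in GFP-high clones and GFP-negative control cells, at 72 h (left) and 48 h (right) of tracing; grey lines join the same mouse, numbers are mice, and the black marks are the mean ± SD of 4 mice. At 48 h clones lie at 0% to 2.17% and control cells at 7.41% to 13.8%, and at 72 h the ranges overlap.

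Within members, the transcriptomes of clones and control cells could be compared in 3 clone sums (mice 5, 7 and 8, all 72 h, with 5, 3 and 22 cells) and 8 control sums. Of 5152 genes 0 were called (0.0%) by edgeR's quasi-likelihood test with the pool as a covariate, 112 had an unadjusted p under 0.05, and DESeq2 also called 0. The goblet list summed to 45029 ± 17708 CPM in clones (SD, n = 3) and 58790 ± 19562 CPM in control cells (SD, n = 8). With the mouse as a block over the 3 mice with both gates, 2 genes were called, which are named here after their values were seen. In each of these mice the gates came from different pools, and the blocked fit had no pool term. Gate and library therefore cannot be told apart within a mouse. The clone sum of mouse 7 held only 58084 UMIs. Itln1 had 8.66, 0 and 105 CPM in clones of mice 5, 7 and 8, and 107 to 1833 CPM in the 8 control sums, a log2 fold change of -3.80 ± 0.45 in that fit (adjusted p = 5.57e-04) and -2.09 ± 0.72 without the block (adjusted p = 1.00). Reg3b had 6987, 295 and 6879 CPM in clones of mice 5, 7 and 8, against 971, 77.3 and 2938 CPM in their control cells (2.02 ± 0.28 in the blocked fit, adjusted p = 0.00247). Clones were higher for Reg3b and lower for Itln1 in 3 of 3 mice.

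Between times, control members were compared in a test added after the data were seen. Of 4480 genes 0 were higher at 72 h (0.0%) and 1 lower (0.0223%), and 290 had an unadjusted p under 0.05. The 1 gene, Hist1h3e, a replication-dependent histone H3 gene with near-identical copies, had 18.6, 21.9, 20.9 and 20.7 CPM in the 72 h mice, against 147, 104, 87.1 and 75.3 CPM in the 48 h mice (-2.29 ± 0.30, edgeR adjusted p = 0.00387). The times did not overlap for it, as for 3.79% of all genes tested. The goblet list was at 62422 ± 29039 CPM at 72 h and 55159 ± 3805 CPM at 48 h, and the G2/M list at 1541 ± 522 and 2543 ± 752 CPM at the same times (SD, n = 4 each).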

How the data were processed

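Per the submitters' processing notes, the authors ran Cell Ranger 6.1.2 on mm10 and deposited, for each of 2 pools, an unnormalized UMI count matrix of 32285 genes and 8 hashtags over 3342 and 2110 barcodes; whether doublets were removed is not given in the sources used here. Barcodes were assigned to mouse and gate by their top hashtag, and the limits on cells are those in the opening; no barcode was left out as a doublet, and removal of Scrublet marks (scanpy 1.11.5) was an alternative. The members and gene lists were chosen with earlier results of these data known. Counts were summed per mouse and class (at least 3 cells) and tested with edgeR 4.0.16 (filterByExpr, TMM, quasi-likelihood, two-sided, threshold 0.05) under R 4.3.3; DESeq2 1.42.0 was an alternative. The 6 genes of the rule stayed out of all calls and lists. SEs are the fold change over the root of F. The pairs come from the animal: both classes of a pair share mouse, gate and library. Shares were tested by exact permutation over mice, with 4 mice per time. Sums of control members held 106244 to 818762 UMIs, so low genes carry few counts. Named genes were, in each class comparison, the 12 largest changes each way among called genes of mean log2 CPM of at least 5 with 1 sign in all mice, the 3 most abundant tested genes of each list, and fixed marker genes; not all are printed. The gene test was tested on simulated counts. Sums and shares used numpy 2.4.6, scipy 1.17.1 and pandas 2.3.3 in python 3.11.15. Alternatives were other size factors, no filter, no block, single mice or pools left out, stricter limits on cells, and thinning to 5000 UMIs.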

Additional observations from a re-analysis of the deposited data

Results flagged for a closer look

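Among 4 clone samples at 48 h, mouse 3 stood apart with a share of dividing secretory progenitors of 2.17%, where the others were at 0. With the others tied at 0 any other value would have been marked, and this share rests on 1 member of 46 cells. Among 4 clone samples at 72 h, mouse 8 stood apart with 6.41%, where the others lay between 2.65% and 3.07%. The clone minus control difference was -1.67 ± 2.20 points at 72 h and -9.10 ± 3.15 points at 48 h (SD, n = 4 mice each), a change of 7.43 points (exact two-sided permutation of the times over mice, p = 0.0286, the smallest that 4 against 4 allow). The 48 h clone shares rest on 4, 18, 46 and 8 cells in mice 1 to 4, with no member in mice 1, 2 and 4. Median clone depth was 2437 UMIs at 48 h and 19934 UMIs at 72 h. The clones' own difference between times changed sign with cells of at least 10000 UMIs. The part of depth in the change was not tested.

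In control cells, 1 mouse stood apart in 6 list sums. The tuft list of dividing secretory progenitors was at 793 CPM in mouse 5, against 37.6 to 65.9 CPM in the other mice, and 1 cell with 29 Dclk1 UMIs was among its 12 members. The Paneth list of non-dividing secretory progenitors was at 180130 CPM in mouse 7, against 4831 to 35239 CPM. In dividing cells with none of the 3 fate genes, the enteroendocrine list was at 1318 CPM in mouse 5 (9.40 to 309 in the others), the tuft list at 212 CPM in mouse 6 (10.96 to 45.4), the absorptive list at 28486 CPM in mouse 8 (2143 to 14484) and the G1/S list at 745 CPM in mouse 6 (1268 to 1582). With the 2 clone shares above, these are 8 marks in 56 groups examined, and chance marks about 1 group in 20. The mark of the 48 h clone share of mouse 3 was certain once the others were at 0.

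Cells with 20% to 50% mitochondrial UMIs were outside the filter. At 48 h, 3.61% of such clone cells met the gene rule (3 of 83), against 1.57% of control cells (5 of 319). Over both times the shares were 0.862% in clones (5 of 580) and 0.874% in control cells (7 of 801).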

How the results depend on the processing

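Depth and the number of mice limit the gene counts. Against dividing cells with none of the 3 genes, pool 1 mice alone gave 650 genes higher and 417 lower, and thinning to 5000 UMIs 282 and 251; leaving out 1 mouse gave 1089 to 1279 higher and 756 to 1017 lower. Against non-dividing secretory progenitors, higher genes numbered 1166 with no filter on low counts, 331 in pool 1 mice alone and 66 when thinned, and lower genes 382 in pool 1 mice alone, 456 in pool 2 mice alone, 494 with a top hashtag of at least 80% and 84 when thinned (580 to 721 higher and 642 to 819 lower with 1 mouse out). Thinning and single pools leave fewer counts or mice; other causes were not tested. When thinned, the called lists fell to 14 goblet, 15 ER and 4 regulator genes higher and 2 G2/M genes lower in the first comparison, and to 0 stem genes higher and 2 ER genes lower in the second. Without the replicate block of mouse, the first comparison gave 1230 higher and 1012 lower and the second 687 and 736. Of 1615 alternative values of the 70 called genes named in the first comparison, 58 lost the call and 2 changed sign; of 1422 for 63 genes in the second, 75 lost it and 0 changed sign.

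Signs that changed in the first comparison were those of Sox4 (0.26) and Cdkn1b (0.048) against cells with at most 1 Lgr5 UMI, Ccnd2 (-0.028) when thinned, and Sox9 with clone sums added (-0.084) or both gates summed (-0.059). In the second they were those of Sox9 without mouse 5 (-0.0010; -0.0010 to 0.27 with 1 mouse out), in pool 2 mice alone (-0.28) and under the 80% hashtag limit (-0.092), and of Hes1 with both gates summed (0.0027) and with that hashtag limit (0.054). The cause was not tested.

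Within members, the fit with the replicate block gave 1 gene higher and 1 lower in clones than in control cells; leaving out 1 mouse was run on the fit without the block, which gave 0 with and without each mouse. Between times DESeq2 gave 5 higher and 8 lower, and leaving out 1 mouse 0 to 9 higher (9 without mouse 8) and 1 to 11 lower (11 without mouse 7).

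The clone minus control share over 8 mice lost its call under the replicate block by sign flips (-5.38 points), with mitochondrial shares up to 50% (-2.77), at least 10000 UMIs (-3.59), 1 fate gene enough (-6.40) and at least 8 Mki67 and Top2a UMIs (-3.71). With 1 mouse out it was -6.22 to -4.18 points, losing the call without mouse 1 (-4.18), 2 (-5.05), 4 (-5.09) or 7 (-5.49). With 1 mouse out, the contrast was -2.38 to -0.672 at 72 h and -9.66 to -7.52 at 48 h, and the 72 h minus 48 h difference 2.26 to 3.71 in clones and -5.01 to -2.87 in control cells. For the share of dividing cells the same 5 contrasts were -13.2 to -9.24 (called without mouse 6, -13.2), -8.03 to -2.36, -17.8 to -15.9, 1.89 to 4.67 and -11.8 to -7.14. The clones' difference between times changed sign with mitochondrial shares up to 50% (-0.016, and -0.67 of dividing cells), with at least 10000 UMIs (-1.86) and with at least 8 Mki67 and Top2a UMIs (-1.08 of dividing cells).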
